A study of Mus musculus with 8 samples.

Results

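The genes described here are 10 β-catenin target genes of pericentral hepatocytes, the liver cells that surround the central veins, out of 23282 rows in each count file. They were taken by name from a list: *Axin2*, *Notum*, *Nkd1*, *Znrf3*, *Rnf43*, *Lgr5*, *Tbx3*, *Sp5*, *Glul* and *Oat*. This list and the other gene lists used below were chosen with earlier results of these data known. Liver RNA came from male C57BL/6 mice, 4 weeks old by the labels, in 3 groups. The saline group received saline, the LPS group received 25 mg/kg lipopolysaccharide (LPS), a bacterial endotoxin, into the abdomen, and the LGK974 group received 60 mg/kg LGK974 2 h before 25 mg/kg LPS. The dose and timing of LGK974, and the LPS given with it, are stated by the study's methods and not by the labels, and livers were taken 6 h after LPS. There were 8 libraries, but LPS libraries 3 and 4 held the same count on every row as LPS libraries 1 and 2, so that 6 distinct libraries remained, 2 in each group. Nothing in the labels says that the libraries of a group came from separate mice, and p-values then measure only the spread between these libraries, which may be technical.

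Wnt proteins are lipid-modified by the acyltransferase Porcupine before they are secreted, and LGK974 inhibits Porcupine. Around the central vein, endothelial cells release Wnt and R-spondin ligands, β-catenin accumulates in the neighbouring hepatocytes and binds TCF transcription factors, and target genes are switched on. Some of the targets feed back on the pathway itself, and others are the metabolic enzymes that set pericentral hepatocytes apart from the periportal hepatocytes of the lobule's outer zone.

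Total counts ranged from 9142116 to 15222439 per distinct library, and 3 counts, taken as the smallest signal a library could show, corresponded to 0.197 to 0.328 CPM, the counts scaled by the total of the library. This floor covers counting error only. Sex-linked transcripts went against the labels, which give all mice as male. *Xist*, the RNA of the inactive X chromosome, had 1444 and 3115 counts in the saline libraries, 1171 and 1884 in the LPS libraries and 3 and 7 in the LGK974 libraries. The Y-linked *Ddx3y* had 0 counts in every saline and LPS library and 1755 and 1392 in the LGK974 libraries. An effect of LGK974 and a difference in sex therefore cannot be told apart in either comparison that uses the LGK974 group. For the labelled tissue, *Alb*, albumin, lay between 22992 and 82763 CPM and the hepatocyte regulator *Hnf4a* between 245 and 319 CPM in the 6 libraries. These values show hepatocyte RNA in each library and do not measure its share.

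Some symbols in the files stood beside rows that are not their neighbours in the genome, which was the case for 579 of the 23134 rows with a RefSeq position. None of the 10 genes was among them, and the rows directly before and after each of the 10 were in genomic order on the same chromosome. The only misplaced row near any of them was *Fpr2* of chromosome 17, which stood 2 rows after *Nkd1*. *Stra13*, 2 rows after *Notum*, had no position to check. Some of the genes share their place with another annotated gene. In GENCODE the model of *Fgfr2* covers the 3′ end of *Oat* on the same strand, and its own row had between 80 and 368 counts. The small gene *1110028F11Rik* lies inside *Rnf43* on the same strand and had between 1 and 30 counts. The antisense gene *Myadml2os* overlaps the 3′ end of *Notum* and had no row of its own. Reads that such pairs share cannot be told apart without the settings of the counting.

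TCF factors bind a short motif, and the letters CTTTGAT were therefore searched on both strands in RefSeq windows of GRCm38.p6. Each window ran from 250 bases before to 50 bases after 1 annotated start, which need not be the first start of the gene. Windows were given for 6 of the 10 genes, 7 windows in all, since *Rnf43* had more than 1. Some lay inside the gene. The part upstream of the start ran from 88527383 to 88527632 for *Nkd1*, which begins at 88521354 in GENCODE. For 1 window of *Rnf43* it ran from 87699647 to 87699896, where the gene begins at 87662722. RefSeq begins *Axin2* at 108917828, before its window. The letters were found in the window of *Sp5* alone, and in 3.73% of all 32851 windows. The part upstream of the start is shown for *Sp5*, which held the motif (in capitals, 104 bases before the start, forward strand), and for *Axin2*, the most widely used readout of the pathway, which did not hold it in this window. *Sp5* is from chr2:70474673-70474922 and *Axin2* from chr11:108920099-108920348, both on the forward strand. A match describes letters only, and the absence of these letters from a window says nothing about binding elsewhere.
Sp5: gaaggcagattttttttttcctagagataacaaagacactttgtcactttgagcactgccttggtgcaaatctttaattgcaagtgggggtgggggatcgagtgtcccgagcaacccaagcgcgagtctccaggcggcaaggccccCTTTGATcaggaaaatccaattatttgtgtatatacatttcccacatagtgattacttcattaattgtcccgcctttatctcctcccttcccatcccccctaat
Axin2: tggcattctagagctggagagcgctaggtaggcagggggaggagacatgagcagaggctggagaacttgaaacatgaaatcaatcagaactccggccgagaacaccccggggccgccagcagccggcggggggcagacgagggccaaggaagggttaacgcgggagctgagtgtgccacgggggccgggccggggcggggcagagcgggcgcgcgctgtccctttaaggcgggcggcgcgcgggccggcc

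After LPS, transcripts of these genes fell together, and in the mice that also received LGK974 their levels were also below those of the saline mice. *Sp5* was too low for the test, and of the 9 genes tested 8 fell in the LPS group against the saline group (edgeR's quasi-likelihood test, Benjamini-Hochberg adjusted over all genes), where 23.0% of all 12701 genes tested fell and 20.4% rose. None of the 9 rose, and *Glul* did not pass. The filter on low counts was reached in the saline group by all 9, but in the LPS group by 4 of them, and *Axin2*, *Lgr5* and *Notum* reached it in the saline group alone, so that the count describes genes kept because they were high in saline. With at least 10 counts required in every library 4 genes were tested and 3 fell. In each of the 10 genes both LPS libraries lay below both saline libraries, an order found for 39.2% of all genes tested. Because the RNA is of whole liver, fewer pericentral hepatocytes and less RNA per cell cannot be told apart. The levels below are CPM normalized by the trimmed mean of M-values (TMM), and since the method reads 3′ ends they were not divided by gene length.

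**Figure D1:**
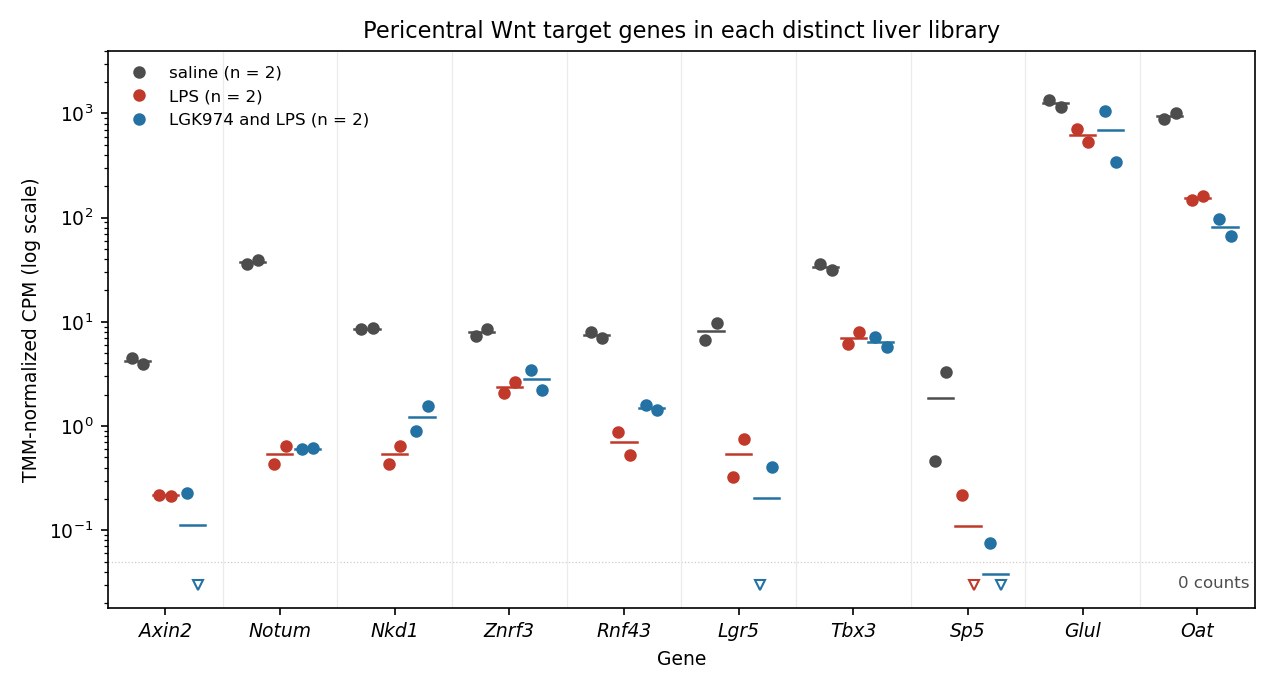
TMM-normalized CPM (log axis) of the 10 pericentral Wnt target genes in each of the 6 distinct libraries, with 1 point per library, a bar at the mean of each group and an open triangle where a library had 0 counts. For all 10 genes the saline points lie above the LPS and LGK974 points, and the gap is widest for *Notum*, at 36.2 and 39.0 CPM in the saline libraries and below 1 CPM in the other 4.

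Among the feedback inhibitors *Notum* had the lowest log2 fold change. It encodes a secreted enzyme that removes the lipid from Wnt proteins (chromosome 11, 120653788 to 120661175, reverse strand, GRCm38). It had 390 and 597 counts in the saline libraries, 4 and 6 in the LPS libraries and 8 and 9 in the LGK974 libraries. In CPM this was 37.6 ± 1.99 in the saline group, 0.538 ± 0.144 in the LPS group and 0.606 ± 0.00364 in the LGK974 group (SD, n = 2). The LPS and LGK974 libraries overlapped each other and lay far below the saline libraries. The log2 fold change after LPS was −6.10 (SE 0.35, adjusted p = 3.77e-06), a 68.5-fold fall, and 80 of the 12281 tested genes on rows in genomic order had a lower value. Against saline the LGK974 group gave −5.93 (SE 0.33, adjusted p = 2.86e-06).

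*Axin2* encodes a scaffold of the complex that marks β-catenin for destruction (chromosome 11, 108920349 to 108950783, forward strand). It had 48 and 60 counts in the saline libraries, 2 and 2 in the LPS libraries and 3 and 0 in the LGK974 libraries. The saline libraries stood at 4.46 and 3.92 CPM, and the other libraries were all at or below the floor of 3 counts. The summed LPS counts amounted to 5.32% of the saline level (95% counting interval 1.42% to 14.0%), and the summed LGK974 counts to 2.59% (0.526% to 7.78%). The test gave a fall in both (log2 fold changes −4.21, SE 0.89, adjusted p = 0.00463, and −5.14, SE 0.92, adjusted p = 0.00259), with sizes that depend on how such low counts are modelled. With 1 library left out at a time the latter ran from −8.64 to −4.14.

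*Nkd1*, whose protein binds Dishevelled and restrains the pathway (chromosome 8, 88521354 to 88594884, forward strand), had 8.45 and 8.69 CPM in the saline libraries. It had 0.436 and 0.640 CPM in the LPS libraries and 0.906 and 1.56 in the LGK974 libraries. The 3 groups did not overlap, with saline highest and LPS lowest. The fall after LPS was −3.97 on the log2 scale (SE 0.53, adjusted p = 0.000372), and that of the LGK974 group against saline was −2.78 (SE 0.46, adjusted p = 0.00175).

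*Znrf3* and *Rnf43* encode related membrane ubiquitin ligases that remove Frizzled receptors from the cell surface. *Rnf43* (chromosome 11, 87662722 to 87735539, forward strand) had 7.98 and 6.99 CPM in the saline libraries, 0.873 and 0.533 in the LPS libraries and 1.59 and 1.42 in the LGK974 libraries. Its groups did not overlap either, in the same order as those of *Nkd1*. It fell by 3.39 on the log2 scale after LPS (SE 0.50, adjusted p = 0.000657). *Znrf3* (chromosome 11, 5276324 to 5444847, reverse strand) had 7.33 and 8.56 CPM in the saline libraries, 2.07 and 2.66 in the LPS libraries and 3.47 and 2.23 in the LGK974 libraries. The LPS libraries of *Znrf3* thus kept 29.8% of the saline mean, where those of *Rnf43* kept 9.39%; the difference between these genes was not tested. The fall of *Znrf3* was −1.74 (SE 0.41, adjusted p = 0.00849) after LPS and −1.48 (SE 0.40, adjusted p = 0.0189) in the LGK974 group. It did not pass after LPS without saline library 2 (−1.62, adjusted p = 0.0576) or LPS library 1 (−1.51, adjusted p = 0.0801), nor in the LGK974 group without saline library 1 (−1.59, adjusted p = 0.0672) or 2 (−1.36, adjusted p = 0.113).

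*Lgr5* encodes a receptor for R-spondins, which shield Frizzled receptors from these ligases (chromosome 10, 115450311 to 115587780, reverse strand). It had 72 and 148 counts in the saline libraries, 3 and 7 in the LPS libraries and 0 and 6 in the LGK974 libraries. The saline libraries held 6.68 and 9.67 CPM, and no other library reached 1 CPM. The log2 fold changes against saline were −3.90 after LPS (SE 0.79, adjusted p = 0.00372) and −5.21 in the LGK974 group (SE 0.85, adjusted p = 0.00156). The latter was −4.30 without LGK974 library 1 (adjusted p = 0.000297). Without LGK974 library 2 it was −9.57 (adjusted p = 4.75e-05), where the library left had 0 counts and the fitted size is not a measurement.

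The transcription factors among the targets differed in level. *Tbx3*, a T-box repressor (chromosome 5, 119670669 to 119684724, forward strand), had 36.2 and 31.3 CPM in the saline libraries, 6.11 and 7.99 in the LPS libraries and 7.17 and 5.75 in the LGK974 libraries. The LPS and LGK974 libraries overlapped, at 20.9% and 19.1% of the saline mean. *Tbx3* fell by 2.26 on the log2 scale after LPS (SE 0.27, adjusted p = 0.000198). *Sp5*, a zinc finger factor that is a direct target of β-catenin (chromosome 2, 70474923 to 70477729, forward strand), had 5 and 50 counts in the saline libraries, 2 and 0 in the LPS libraries and 1 and 0 in the LGK974 libraries. Saline library 2 held most of its counts, and every LPS and LGK974 library was below the floor. The summed LPS counts amounted to 5.22% of the saline level (95% counting interval 0.617% to 19.8%). This interval does not cover the gap between the saline libraries. Without the filter on low counts its fall after LPS passed (log2 fold change −3.97, adjusted p = 0.00879). With the filter on, *Sp5* entered the test only in fits that left out 1 library. Whether its fall after LPS passed depended on which library that was. The log2 fold change was −4.80 without saline library 1, −3.06 without LPS library 2 and −4.02 without LGK974 library 1 or without LGK974 library 2. Without LPS library 1 the LPS library left had 0 counts, and no size is given.

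The metabolic enzymes were the most abundant of the 10 genes. *Oat* encodes ornithine aminotransferase, which passes nitrogen from ornithine towards glutamate (chromosome 7, 132557478 to 132576398, reverse strand). It had 876 and 1006 CPM in the saline libraries, 148 and 162 in the LPS libraries and 97.5 and 66.5 in the LGK974 libraries. The 3 groups were clear of each other, with saline highest and LGK974 lowest. *Oat* fell by 2.60 on the log2 scale after LPS (SE 0.24, adjusted p = 3.98e-05) and the LGK974 group gave −3.52 against saline (SE 0.25, adjusted p = 1.12e-05).

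*Glul* encodes glutamine synthetase, which binds ammonia in the hepatocytes next to the central vein (chromosome 1, 153899944 to 153909723, forward strand). It had 1344 and 1156 CPM in the saline libraries, 707 and 535 in the LPS libraries, and 1047 and 341 in the LGK974 libraries. The LPS libraries lay below the saline libraries, whereas the LGK974 libraries stood on either side of the LPS libraries. The log2 fold change after LPS was −1.01 (SE 0.43, 95% interval −1.97 to −0.04), with an adjusted p of 0.0850, and that of the LGK974 group against saline was −0.85 (SE 0.43, adjusted p = 0.155). The latter was −1.87 and passed without LGK974 library 1 (adjusted p = 1.11e-05), and was −0.25 without LGK974 library 2 (adjusted p = 0.323). The fall after LPS passed without LGK974 library 1 (−1.01, adjusted p = 0.000128) or 2 (−1.01, adjusted p = 0.000158). It also passed in the model of the saline and LPS groups alone (−0.98, adjusted p = 0.000398) and, with all 6 libraries, without the filter on low counts (−0.97, adjusted p = 0.000175), where the LGK974 group passed against saline as well (−0.81, adjusted p = 0.00269). Its LPS mean was 49.7% of the saline mean, the smallest proportional fall among the 10.

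**Figure D2:**
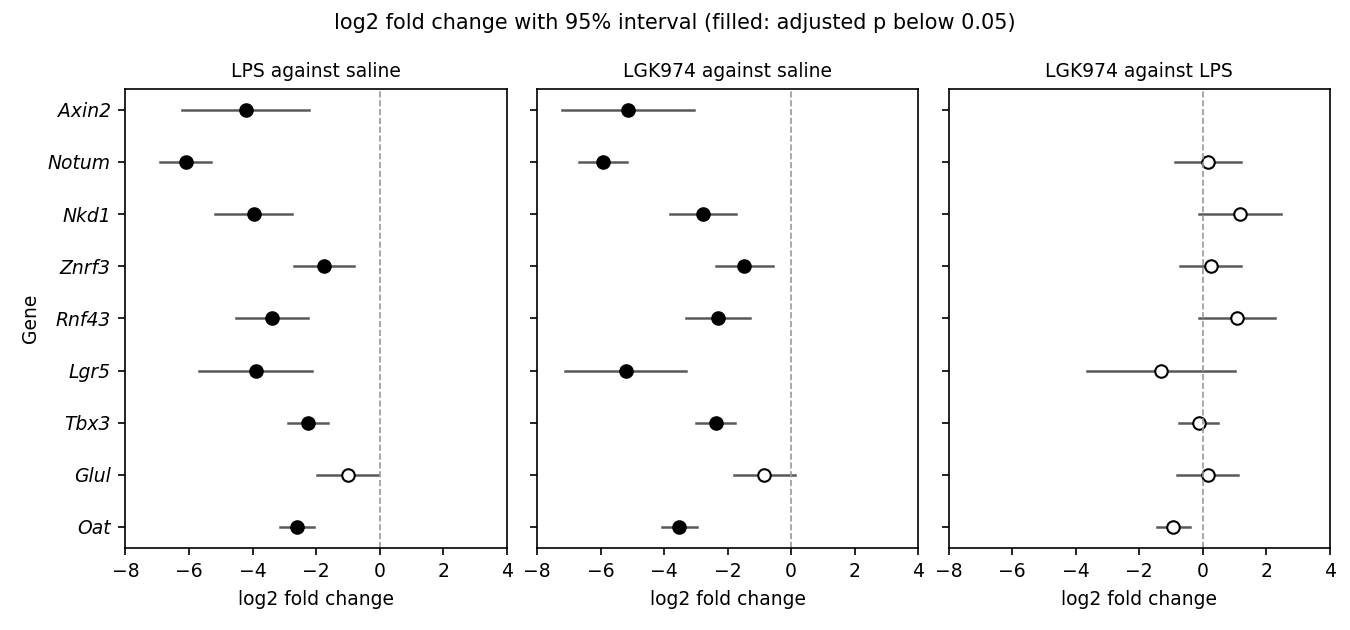
log2 fold changes (points) with 95% intervals (lines) of the 9 tested genes in the 3 comparisons, filled where the adjusted p was below 0.05; *Axin2* is not drawn for LGK974 against LPS, where both groups were at or below 3 counts per library. Of the 9 genes 8 are filled in both comparisons against saline and 0 in the comparison of LGK974 with LPS.

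Whether LGK974 changed the targets further in endotoxemic mice was addressed by the comparison of the LGK974 group with the LPS group. None of the 9 genes tested passed in edgeR's quasi-likelihood test, where 5.62% of all genes tested did, 2.82% lower and 2.80% higher. At an unadjusted p below 0.05 there was 1 of the 9, *Oat*, against 22.9% of all genes, and DESeq2 called 1, again *Oat*, where it called 9.66% of all genes. Against saline the LGK974 group was lower in 8 of the 9 genes, and higher in 0, with 17.7% of all genes lower and 16.4% higher. *Axin2*, *Lgr5* and *Notum* reached the filter on low counts in the saline group alone, so this count too describes genes kept because they were high in saline. With at least 10 counts required in every library, only *Znrf3*, *Tbx3*, *Glul* and *Oat* were tested, and 3 were lower. For all 10 genes the LGK974 libraries lay below the saline libraries, an order found for 34.3% of all genes. The comparisons share libraries, and each is given by its own values.

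Both LGK974 libraries lay below both LPS libraries for *Oat*, an order found for 26.0% of all genes. Its log2 fold change was −0.92 (SE 0.23, 95% interval −1.43 to −0.41), with an unadjusted p of 0.00285 and an adjusted p of 0.0503. Over the alternatives its adjusted p ranged from 0.000591 to 0.28, with a negative log2 fold change in each. *Rnf43* and *Nkd1* lay higher in both LGK974 libraries than in both LPS libraries, an order found for 26.5% of all genes. Their log2 fold changes were 1.09 (95% interval −0.10 to 2.27, adjusted p = 0.255) and 1.18 (−0.10 to 2.47, adjusted p = 0.253). Neither passed.

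For *Notum* the difference was 0.17 (95% interval −0.88 to 1.22), for *Znrf3* 0.26 (−0.70 to 1.22) and for *Tbx3* −0.13 (−0.75 to 0.49). None of these intervals leaves out a change in either direction. For *Lgr5* the interval was wider still, −3.64 to 1.03 around −1.31, on 10 and 6 counts in all. For *Axin2* and *Sp5* both groups were at or below the floor and a difference was not detectable at this depth.

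The value of *Glul* in this comparison was set by single libraries. With both LGK974 libraries it was 0.16 (95% interval −0.80 to 1.12, adjusted p = 0.858). Without LGK974 library 1 it was −0.86 and passed (adjusted p = 0.00989), and without LGK974 library 2 it was 0.75 and passed in the other direction (adjusted p = 0.0243). The LGK974 libraries differed 3.07-fold in *Glul*, where the saline libraries differed 1.16-fold and the LPS libraries 1.32-fold.

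Other genes of the pericentral zone moved in the same direction after LPS. Of 22 listed and tested 16 fell and 1 rose, where 23.0% of all genes fell and 20.4% rose, with a median log2 fold change of −1.78, beside −3.39 for the target genes and 0.01 for all genes tested. The largest falls were those of *Cyp7a1*, the rate-limiting enzyme of bile acid synthesis (log2 fold change −7.02, adjusted p = 3.77e-06), the nuclear receptor gene *Nr1i3* (−5.54, adjusted p = 1.68e-05) and *Prodh*, which starts proline breakdown (−4.07, adjusted p = 1.78e-05). The xenobiotic-metabolizing cytochromes *Cyp2e1* and *Cyp1a2* kept 8.05% and 23.6% of their saline means. *Cldn2*, a tight junction gene, rose by 0.97 (adjusted p = 0.00236), from 72.7 and 72.8 CPM to 136 and 148.

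Genes of the periportal zone fell as well. Of 16 tested on rows in genomic order 14 fell and 1 rose, with a median of −1.99, beside the same 23.0% and 20.4% of all genes. The largest falls were those of the uridine phosphorylase gene *Upp2* (log2 fold change −5.62, adjusted p = 6.88e-05), *Pck1*, of gluconeogenesis (−4.74, adjusted p = 1.11e-05), and *Etnppl* (−4.16, adjusted p = 0.000117), and the cytochrome gene *Cyp2f2* fell by 1.59 (adjusted p = 0.00304). *Sox9*, a transcription factor of bile duct and periportal cells, rose by 3.12 (adjusted p = 0.000539). The fall was thus measured in lists of both zones, and whether it differed between them was not tested. Of 8 hepatocyte markers on rows in genomic order 3 were lower and 1 higher (all genes: 23.0% and 20.4%), with a median of −0.34. *Hnf4a* had a log2 fold change of −0.16 (adjusted p = 0.539) and *Alb*, albumin, fell by 1.17 (adjusted p = 0.0138).

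Against saline, where 17.7% of all genes were lower and 16.4% higher, the LGK974 group was lower in 18 of the 22 pericentral genes and higher in 1, with a median of −2.32. *Cyp7a1* had 0 and 2 counts in the LGK974 libraries, below the floor, which together amounted to 0.110% of the saline level (95% counting interval 0.0133% to 0.399%). *Nr1i3* (−4.60, adjusted p = 3.23e-05) and *Lhpp*, a phosphatase gene (−3.83, adjusted p = 9.09e-05), fell most after it, and *Cldn2* rose by 0.97 (adjusted p = 0.00313). Of the 16 periportal genes 12 were lower and 1 higher, with a median of −2.17, beside the same shares of all genes. *Upp2* (−6.20, adjusted p = 6.26e-05), *Etnppl* (−4.29, adjusted p = 0.000134) and *Aldh1b1*, an aldehyde dehydrogenase gene (−3.34, adjusted p = 2.07e-05), fell most, and *Sox9* rose by 2.44 (adjusted p = 0.00257). *Ass1* and *Slc7a2* of the periportal list, *Cd44* of the other Wnt targets and *Ctnnbip1* of the pathway core stood on rows out of genomic order, and their values are left out.

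Between the LGK974 and LPS groups, where 2.82% of all genes were lower and 2.80% higher, 1 of the 22 pericentral genes was lower and 0 were higher, with a median of −0.45. The lower gene was *Cyp2c37* (log2 fold change −1.31, adjusted p = 0.0244). *Cyp2e1* had 292 and 232 CPM in the LPS libraries and 585 and 384 in the LGK974 libraries, which did not pass (0.89, adjusted p = 0.0670). Of the periportal genes on rows in genomic order 3 of 16 were higher and 0 lower, with a median of −0.12. Among them were *Pck1* (2.47, adjusted p = 0.00448) and *Ftcd*, of histidine breakdown (1.09, adjusted p = 0.0212).

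Wnt targets best known from other tissues were also listed. Of 10 tested on rows in genomic order 4 rose, 1 fell and 5 did not pass after LPS, where 20.4% of all genes rose and 23.0% fell, with a median of 0.90, which did not move when *Mmp7*, with 0 counts in both saline libraries, was set at its lower bound. *Sox4*, a transcription factor gene, rose by 1.67 (adjusted p = 0.0120), and *Ccnd1*, cyclin D1, rose from 79.3 and 85.2 CPM to 237 and 229 (adjusted p = 0.00440). *Fosl1*, an AP-1 subunit, rose from 0 and 1 counts to 28 and 57, and the receptor gene *Tnfrsf19* fell from 111 and 69 counts to 0 and 1. Between LGK974 and LPS 0 of the 10 passed, beside 5.62% of all genes, and against saline 3 of the 10 were higher in the LGK974 group and 1 lower, beside 16.4% and 17.7%.

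Upstream of the targets, genes for the ligands and their receptors were also measured. *Wnt2*, a Wnt of the central vein and sinusoidal endothelium, had 8.26 and 7.91 CPM in the saline libraries, 0.764 and 0.213 in the LPS libraries and 0.302 and 2.17 in the LGK974 libraries. It fell by 4.03 on the log2 scale after LPS (adjusted p = 0.00507). *Rspo3*, the R-spondin of the same cells, had 25.2 and 19.4 CPM, 7.53 and 8.31, and 9.13 and 17.5, and fell by 1.49 (adjusted p = 0.00737). The saline libraries were the highest for both genes, and LGK974 library 2 stood above library 1 for both.

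*Lgr4*, the R-spondin receptor that hepatocytes express more broadly than *Lgr5*, fell from 42.2 and 39.6 CPM to 9.17 and 7.25 after LPS (log2 fold change −2.32, adjusted p = 9.54e-05) and stood at 15.3 and 12.5 in the LGK974 libraries (0.76 against LPS, adjusted p = 0.105). *Rspo1* had 8 and 16 counts in the saline libraries and 0 in the other 4, and *Wnt9b* 1 and 2 counts, 0 and 0, and 0 and 20; both were too low for the test. Of the 4 tested genes of this list 3 fell after LPS and 0 rose (all genes: 23.0% and 20.4%), and 0 passed between LGK974 and LPS (all genes: 5.62%). The tested gene that did not pass after LPS was *Dkk3*, which is not a gene of a ligand or receptor (0.26, adjusted p = 0.772). Against saline the LGK974 group was lower in *Wnt2* (−2.68, adjusted p = 0.0208) and *Lgr4* (−1.56, adjusted p = 0.00104). Of 9 sinusoidal endothelial markers on rows in genomic order 4 fell and 2 rose after LPS (all genes: 23.0% and 20.4%), with a median log2 fold change of −1.13. *Clec4g* kept 8.91% of its saline mean, *Kdr* was at 64.7 and 64.6 CPM in the saline libraries and 0.873 and 2.24 in the LPS libraries, and *Lyve1* was at 49.5 and 35.7 and then 360 and 336. The summed level of the 9 was 279 to 292 CPM in the saline libraries, 462 to 463 in the LPS libraries and 494 to 634 in the LGK974 libraries, and none was at 0 in any library. Without *Lyve1* the sum was 230 to 257 CPM, then 103 to 126 and 94.4 to 135, so that the higher sum after LPS was that of *Lyve1*. Their part in the values of *Wnt2* and *Rspo3* was not tested.

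Among 27 tested genes of the pathway's core on rows in genomic order, 7 fell and 1 rose after LPS, with a median of −0.15, where 23.0% of all genes fell and 20.4% rose. *Fzd8*, a Frizzled receptor, fell by 3.18 (adjusted p = 0.000197). The nuclear partners of β-catenin *Tcf7l1* and *Bcl9l* had log2 fold changes of −2.46 (adjusted p = 0.000364) and −2.14 (adjusted p = 0.00978). *Tcf7l2*, the main TCF gene of hepatocytes, fell by 1.32 (adjusted p = 0.000657). The kinase gene *Csnk1a1* rose by 0.68 (adjusted p = 0.0242). *Ctnnb1*, which encodes β-catenin itself, had 196 and 252 CPM in the saline libraries and 266 and 307 in the LPS libraries (log2 fold change 0.35, adjusted p = 0.184). *Apc*, of the destruction complex, had a log2 fold change of 0.19 (adjusted p = 0.499).

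*Porcn*, the gene of the enzyme that LGK974 inhibits, had 4.08 and 2.55 CPM in the saline libraries, 1.42 and 0.959 in the LPS libraries and 3.77 and 4.13 in the LGK974 libraries. It fell by 1.46 after LPS (adjusted p = 0.0464), and both LGK974 libraries stood above both LPS libraries without passing (log2 fold change 1.73, adjusted p = 0.0863). Of the core genes 0 of 27 passed between LGK974 and LPS, beside 5.62% of all genes, and 5 were lower and 0 higher in the LGK974 group against saline, where 17.7% of all genes were lower and 16.4% higher, among them *Fzd8* (−3.37, adjusted p = 0.000174) and *Tcf7l1* (−1.66, adjusted p = 0.00311). The level of *Porcn* RNA does not measure whether the enzyme was inhibited.

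Markers of other liver cells were measured beside the target genes. Of 9 stellate cell markers on rows in genomic order 4 fell and 1 rose after LPS (all genes: 23.0% and 20.4%), with a median log2 fold change of −1.02. Of 6 tested bile duct markers 1 fell and 0 rose, with a median of −1.43. Neutrophil markers on 6 rows in genomic order summed to 1.76 to 2.35 CPM in the saline libraries, with 3 to 5 of them at 0, and to 98.4 to 111 in the LPS and 66.0 to 72.0 in the LGK974 libraries, with none at 0. Of 8 Kupffer cell markers on rows in genomic order 4 fell and 1 rose after LPS (all genes: 23.0% and 20.4%), with a median log2 fold change of −0.45. *Vsig4* kept 14.7% and *Clec4f* 54.0% of the saline mean, whereas *Marco*, a scavenger receptor gene, rose from 6.87 and 6.27 CPM to 96.6 and 74.5. The 8 markers summed to 238 to 248 CPM in the saline, 229 to 230 in the LPS and 140 to 177 in the LGK974 libraries, and without *Marco* to 231 to 242, 134 to 154 and 79.6 to 80.1. Their part in the levels of the target genes was not tested.

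The genes whose pattern over the 6 libraries lay nearest to that of *Axin2* and *Notum* were found by the Euclidean distance between log2 CPM values centred on the saline mean. The nearest to *Axin2* were *Hgd*, of tyrosine breakdown (distance 0.591), *Ddah1* (0.797), *Cth*, of cysteine synthesis (0.807), *Lhpp* (0.811) and *Akr1d1*, of bile acid synthesis (0.927), where the median distance over all genes was 7.75. Of these *Lhpp* also stood on the list of pericentral genes. Among the nearest to *Notum* were *Slc2a2*, the glucose transporter gene of hepatocytes (1.01), *Gm4952* (1.08), *Car5a* (1.10) and *Cyp8b1*, of bile acid synthesis (1.24), with a median of 11.4. These distances describe 6 libraries in 3 groups. *Axin2* was at or below the floor in 4 of the libraries, so its values there, and the distances and their order, rest on the prior count of 2 added before taking logs.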

How the data were processed

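Liver RNA was measured by the authors with the LEXOGEN Quant-Seq kit, which reads 3′ ends. They deposited the count of reads per gene symbol for each library, without normalization. The submitters' processing notes name Bowtie2, edgeR and mm10, and the counting program and its strand setting are not given in the sources used here. The members and gene lists were chosen with earlier results of these data known. Identical LPS libraries were counted once. Tests on the counts were run with edgeR 4.0.16 under R 4.3.3: filterByExpr by group kept 12701 rows, TMM scaled the libraries, and 1 quasi-likelihood model of the 3 groups was fitted to 6 libraries, with Benjamini-Hochberg adjustment at 0.05. SE and 95% intervals were derived from the same test, which was tested on simulated data. Counting intervals are exact, conditional on the summed counts, and cover counting error only. With 2 libraries against 2, an exact permutation test cannot go below p = 0.333 and was not used.

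Row order was compared with RefSeq positions on GRCm38.p6, and a row more than 2 Mb from its ordered neighbours was called out of order. Gene coordinates are from GENCODE vM21 (GRCm38). The genes named are the 10 members, the 3 largest called rises and falls of each zonation and pathway list in each comparison (those on rows out of genomic order without values), a few genes fixed by name, and the 5 nearest in pattern to *Axin2* and *Notum*; some genes that this rule names are not reported here. *Kdr*, *Lyve1*, *Clec4g*, *Vsig4*, *Clec4f*, *Marco*, *Hnf4a*, *Alb*, *Rspo1*, *Dkk3*, *Fpr2*, *Stra13* and *Tcf7l2*, and those in the closing section that are not named before it, were added after their values were seen. Alternatives were other filters, scalings and models, DESeq2 1.42.0, the replicate block, reassigned symbols and leaving out each library.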

Additional observations from a re-analysis of the deposited data

How the results depend on the processing

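Over 18 alternatives, 433 of 468 values of the member genes kept their direction and their side of the threshold, 24 passed in the same direction where they had not, 4 no longer passed and 7 changed sign, 1 of which then passed (*Glul* without LGK974 library 1). All 7 sign changes were in LGK974 against LPS: *Notum* −0.10 without LPS library 1, *Tbx3* 0.08 and *Glul* −0.03 without LPS library 2, *Znrf3* −0.08 and *Glul* −0.86 without LGK974 library 1, and *Axin2* 0.07 and *Tbx3* 0.02 without LGK974 library 2. With 1 library left out at a time, the log2 fold changes there ran from −0.10 to 0.47 for *Notum*, −0.34 to 0.08 for *Tbx3*, −0.86 to 0.75 for *Glul*, −0.08 to 0.55 for *Znrf3*, −4.43 to 0.07 for *Axin2*, which rests on 7 counts or fewer, and −5.67 to −0.40 for *Lgr5* (adjusted p from 0.0776 to 0.883 over all alternatives). The lowest values of *Axin2* and *Lgr5* are fits to a group left with 0 counts. The 4 lost calls were those of *Znrf3*. The cause was not tested.

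In LGK974 against LPS, 1 member, *Oat*, was called lower without the filter, with at least 10 counts in every library, with RLE, upper-quartile or total-count scaling, with the identical LPS libraries counted separately, without rows out of genomic order, with reassigned symbols and with DESeq2. Counted separately, the identical libraries also made 2 members, *Rnf43* and *Nkd1*, higher. The genes called there numbered 714, and 1705 without the filter, 3259 with identical libraries separate, 269 from the 2 groups alone and 1227 with DESeq2. Requiring 10 counts in every library left 4 members to test, of which 3 fell after LPS and 3 in LGK974 against saline. Leaving out 1 library gave 7 to 10 members lower after LPS, 7 to 10 lower in LGK974 against saline, 0 to 2 lower and 0 to 1 higher in LGK974 against LPS, and 3432 to 6719, 2372 to 5369 and 49 to 2242 genes called in these comparisons. A group left with 1 library was assumed to vary like the others.

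Same-numbered libraries deviated together little (correlations 0.140, −0.00749 and 0.0605), so the numbers did not pair them. With the replicate block 5485, 4307 and 685 genes were called, and among members *Glul* alone changed, falling after LPS (−1.03, adjusted p = 0.0347) and in LGK974 against saline (−1.02, adjusted p = 0.0469). Low counts limit *Axin2*, *Lgr5*, *Notum* and *Sp5* outside the saline group, and *Nkd1* and *Rnf43* in the LPS group.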

Other observations

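The LGK974 libraries differed from each other in genes of both zones. All 5 target genes above 1 CPM in both libraries were higher in library 1, with a median ratio of 1.47, beside a median of 0.972 over 9 target genes between the saline libraries and 0.846 over 4 between the LPS libraries. *Rnf43*, 1 of the 5, had 21 counts in each, so that it was higher in library 1 only through the scaling. *Nkd1* had 12 and 23 counts, *Lgr5* 0 and 6 and *Notum* 8 and 9 in LGK974 libraries 1 and 2, and none of these was above 1 CPM in both. Of other pericentral genes 15 of 21 were higher in library 1 (median ratio 1.36), and of periportal genes 10 of 16 (1.34). The ratio was 3.07 for *Glul*, 2.54 for the pericentral cytochrome *Cyp2c29*, 4.39 for the periportal *Sds*, which deaminates serine, and 3.82 for *Tat*, tyrosine aminotransferase, which differed 2.82-fold between the LPS libraries as well. *Tat* had the highest ratio of 8 hepatocyte markers, of which 5 were higher in library 1, with a median ratio of 1.07. Endothelial genes were split. Of 9 sinusoidal endothelial markers 7 were higher in library 2 and 2 in library 1, with a median ratio of library 1 to library 2 of 0.801. *Wnt2* had 4 and 32 counts in libraries 1 and 2, *Wnt9b* 0 and 20, *Rspo3* 121 and 258, and *Kdr* 39 and 231, whereas *Clec4g* had 29 and 13 and *Stab2* 130 and 99. The ribosomal precursor *Rn45s* took 4.80% of the counts in LGK974 library 1 and 9.38% in library 2, and 7.17% to 8.26% in the other libraries, and its part in these differences was not tested. With 2 libraries these are values of single libraries, and no test was made.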
